A study of Mus musculus with 16 samples.

Results

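The 10 genes described here belong to families of protease inhibitors of the epidermis. They were chosen by name from the count tables, which held 23238 gene symbols. Of these genes, 7 are clade B serpins (Serpinb2, Serpinb3a, Serpinb3b, Serpinb3c, Serpinb3d, Serpinb5 and Serpinb12) and 3 are stefins of the stefin A type (Stfa1, Stfa2 and Stfa3). Total RNA from mouse dorsal skin was sequenced from the 3′ end with QuantSeq, with 4 libraries in each of 4 groups, and the values are counts scaled to a common total (CPM), scaled by the TMM factors of edgeR. QuantSeq reads a single stretch at the end of each messenger RNA, so the counts were not divided by transcript length. All animals were wild-type male C57BL/6N mice bought at 3 weeks of age, and no genetic model was used. The Cont group was fed normal chow. The LowAhR group was kept for 12 weeks on a diet poor in ligands of the aryl hydrocarbon receptor (AhR), with paper bedding. The LowAhR+AD group had the same diet, and from week 2 its dorsal skin was painted 2 times a week with 1% 2,4-dinitrochlorobenzene (DNCB), a hapten, in acetone and olive oil, to induce atopic dermatitis (AD). The LowAhR+AD+BJ group had the diet and DNCB and was given Bojungikgi-tang (BJIKT), a herbal water extract, at 1 g/kg/day by oral gavage. Diet and bedding changed together between the Cont and LowAhR groups, no group received DNCB on normal chow, and none received BJIKT without DNCB.

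Clade B serpins stay mostly inside the cell, and most of them trap proteases with a reactive loop that springs shut when it is cut. Stefins are small inhibitors that plug the active site of cysteine cathepsins. Both families are known from stratified epithelia, where they are made in the upper layers and in inflamed skin, and stefin A genes are also active in myeloid cells such as neutrophils.

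The 7 serpins lie in a single cluster on chromosome 1 (GRCm38, between positions 106861175 and 107525600, 664.4 kb), and the 3 stefins lie within 178.2 kb on chromosome 16 (36277148 to 36455392). RefSeq promoters (GRCm38.p6, 250 bases before to 50 bases after the start of the transcript) were found for 10 of 10 genes. The stefin promoters are shown because the 3 genes were the members that changed most after DNCB and because their promoters are close copies. Stfa1 lies on the plus strand (chr16:36276898-36277197), and Stfa2 (chr16:36408314-36408613) and Stfa3 (chr16:36455343-36455642) on the minus strand. Capitals mark a match to the STAT6 motif (TTC and GAA with 4 bases between) in Stfa2 and to the AP-1 motif TGANTCA in Stfa3.
Stfa1: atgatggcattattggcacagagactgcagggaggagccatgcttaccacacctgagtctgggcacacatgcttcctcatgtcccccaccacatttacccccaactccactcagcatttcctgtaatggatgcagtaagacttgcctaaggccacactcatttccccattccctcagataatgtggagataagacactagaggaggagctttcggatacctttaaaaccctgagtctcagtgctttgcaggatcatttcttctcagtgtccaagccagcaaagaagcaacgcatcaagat
Stfa2: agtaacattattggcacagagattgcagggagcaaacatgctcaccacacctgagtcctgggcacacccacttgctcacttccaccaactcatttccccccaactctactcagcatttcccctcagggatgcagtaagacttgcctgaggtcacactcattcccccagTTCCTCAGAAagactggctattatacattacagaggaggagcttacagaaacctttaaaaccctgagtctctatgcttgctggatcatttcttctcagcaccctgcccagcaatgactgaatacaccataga
Stfa3: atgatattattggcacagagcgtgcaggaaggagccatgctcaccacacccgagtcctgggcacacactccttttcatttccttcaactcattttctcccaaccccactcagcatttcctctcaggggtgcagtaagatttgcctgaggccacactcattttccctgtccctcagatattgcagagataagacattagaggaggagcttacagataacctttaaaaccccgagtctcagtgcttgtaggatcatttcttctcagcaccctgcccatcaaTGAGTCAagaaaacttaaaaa
Aligned over the 300 bases, Stfa1 was 78.2% identical to Stfa2 and 80.6% to Stfa3, and Stfa2 and Stfa3 were 80.9% identical.

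The promoters of Serpinb3a (chr1:107052254-107052553) and Serpinb3b (chr1:107161065-107161364), both on the minus strand, are shown as the close copies with detectable levels, and that of Serpinb12 (chr1:106934199-106934498, plus strand) as the serpin called against Cont. Capitals mark the AP-1 match in Serpinb12.
Serpinb3a: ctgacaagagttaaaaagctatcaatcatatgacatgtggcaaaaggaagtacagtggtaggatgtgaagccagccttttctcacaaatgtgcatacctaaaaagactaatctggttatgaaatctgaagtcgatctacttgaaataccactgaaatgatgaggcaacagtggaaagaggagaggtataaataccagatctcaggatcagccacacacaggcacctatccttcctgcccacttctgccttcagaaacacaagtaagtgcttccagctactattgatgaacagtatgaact
Serpinb3b: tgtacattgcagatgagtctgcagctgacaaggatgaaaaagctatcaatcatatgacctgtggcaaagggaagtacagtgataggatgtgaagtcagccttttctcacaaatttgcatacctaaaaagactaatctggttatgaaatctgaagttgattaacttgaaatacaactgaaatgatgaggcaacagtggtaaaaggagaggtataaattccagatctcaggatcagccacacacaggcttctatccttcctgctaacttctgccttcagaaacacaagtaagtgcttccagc
Serpinb12: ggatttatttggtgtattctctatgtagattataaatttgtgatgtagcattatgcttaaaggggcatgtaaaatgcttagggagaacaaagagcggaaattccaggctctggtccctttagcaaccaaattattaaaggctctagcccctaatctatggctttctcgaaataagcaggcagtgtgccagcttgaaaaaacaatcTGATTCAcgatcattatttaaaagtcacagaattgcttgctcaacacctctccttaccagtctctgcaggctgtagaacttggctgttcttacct
The Serpinb3a and Serpinb3b promoters were 79.3% identical.

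Both strands of all promoters were searched for 4 motifs, and no match overlapped a match of another motif in the members. The AP-1 motif TGANTCA was present in 5 of the 12 promoters listed for the members, which belong to 4 genes. It lay in both overlapping promoters of Serpinb2 (the same site, -94 and -181 bases from the start of the transcript), and in those of Serpinb5 (-140), Serpinb12 (-45) and Stfa3 (29). Of the 32851 promoters in the table, 7.81% held it. The STAT6 motif, TTC and GAA with 4 bases between, was present only in Stfa2 (-82) among the members and in 6.95% of all promoters. The STAT3 motif, with 3 bases between, was present in both promoters of Serpinb2 (again the same site, 10 and -77) and in 8.3% of all promoters. The core of the AhR binding site, GCGTG, was present only in Stfa3 (-231) among the members and in 32.4% of all promoters. A match describes the letters of this window only.

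Whether reads could be shared between close copies was examined in the reference transcripts, with windows of 75 bases over the last 300 bases of each transcript. For Stfa1, 23.9% of the windows were also found in BC100530, and for Stfa2, 10.2% were also found in Stfa2l1, both neighbouring stefin A genes. Counts of Stfa1 and Stfa2 are therefore less certain than those of Stfa3 and the serpins, which shared 0% of their windows. The ends of the Serpinb3a, Serpinb3b and Serpinb3c transcripts were 90.4% to 92.4% identical, without a shared window.

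Of the 10 members, 8 passed the edgeR filter on low counts and were tested. Serpinb3c had 18 counts over all 16 libraries, at most 6 in a library, and Serpinb3d had 3 counts in all. Both levels lie near the limit that a count of 0 allows, which is 3 counts or 0.229 to 0.406 CPM per library and covers counting error only. Library totals were 7080508 to 8773876 in the Cont and LowAhR groups and 10614393 to 13467477 in both groups treated with DNCB. Genes predicted at 20 to 40 counts from the other replicates were at 0 in 38.2% of cases in LowAhR+AD replicate 1, and in at most 13.6% in any other library. This library had the lowest level, ties included, of 8 of the 8 tested members in its group, and LowAhR+AD replicate 3 had the highest of 6. Results that rest on these libraries are given with and without them. In such bulk samples, fewer cells of a type and less RNA per cell cannot be told apart.

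Stfa1, an inhibitor of cathepsins, had the clearest difference between groups. Its levels were 2.44, 3.23, 9.49 and 2.15 CPM in the Cont libraries and 6.62, 9.85, 11.1 and 3.10 CPM in the LowAhR libraries. They were 68.7, 439, 807 and 277 CPM in the LowAhR+AD libraries and 378, 580, 303 and 508 CPM in the LowAhR+AD+BJ libraries. All 8 libraries from DNCB-treated skin lay above all 8 without DNCB, whereas the Cont and LowAhR groups overlapped each other, as did the LowAhR+AD and LowAhR+AD+BJ groups. Stfa1 rose in the LowAhR+AD group compared with the LowAhR group, from a mean of 7.66 ± 3.57 to 398 ± 312 CPM (SD, n = 4), and the log2 fold change was 5.70 (SE 0.68, edgeR adjusted p = 0.000148). With 1 library left out, this log2 fold change ranged from 5.10 to 6.04, and the adjusted p stayed at or under 0.00107.

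Stfa3, a second cathepsin inhibitor, was detected in every library. It had 82.5, 66.4, 101 and 46.4 CPM in the Cont group and 44.2, 76.8, 148 and 13.6 CPM in the LowAhR group. The LowAhR+AD libraries had 66.9, 574, 3315 and 399 CPM, and the LowAhR+AD+BJ libraries had 443, 1027, 457 and 1097 CPM. LowAhR+AD replicate 1 lay inside the range of the LowAhR group, the other LowAhR+AD libraries lay above it, and replicate 3 was far above the rest. Stfa3 rose by a log2 fold change of 3.95 in LowAhR+AD against LowAhR (SE 0.88, edgeR adjusted p = 0.00812). Without LowAhR+AD replicate 3 the change was 2.30 (edgeR adjusted p = 0.0285), and when just these 8 libraries were fitted it was 3.94 and missed the threshold (edgeR adjusted p = 0.0617).

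Stfa2, a close relative of both, was also detected in every library. Its levels were 4.87, 3.87, 2.47 and 4.79 CPM in Cont and 4.87, 4.35, 6.50 and 3.46 CPM in LowAhR. In LowAhR+AD they were 5.26, 34.7, 192 and 20.5 CPM, and in LowAhR+AD+BJ 17.7, 38.5, 32.7 and 62.7 CPM. The order of the LowAhR+AD libraries was the same as for Stfa3, with replicate 1 inside the LowAhR range and replicate 3 highest. Stfa2 rose in LowAhR+AD against LowAhR with a log2 fold change of 3.71 (SE 0.77, edgeR adjusted p = 0.00497). The change was 2.07 without LowAhR+AD replicate 3 (edgeR adjusted p = 0.0153), and with limma voom it was 2.63 and not called (adjusted p = 0.223).

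In the tested members, 3 of 8 were called in LowAhR+AD against LowAhR, and all 3 were higher. Of all 14854 tested genes, 12.6% were called in this comparison, and 6.42% were called as higher. The median log2 fold change was 3.10 over the 8 tested members and 0.04 over all tested genes. The median of the members lay between Serpinb12 (2.76) and Serpinb3a (3.45), neither of them called. Serpinb12 was at -0.084 without LowAhR+AD replicate 3, and Serpinb3a was at 0 in 9 of the 16 libraries. This median therefore does not measure a shift shared by the members. Stfa1 was the member whose groups did not overlap, and 8.95% of all tested genes lay higher without overlap.

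**Figure D1:**
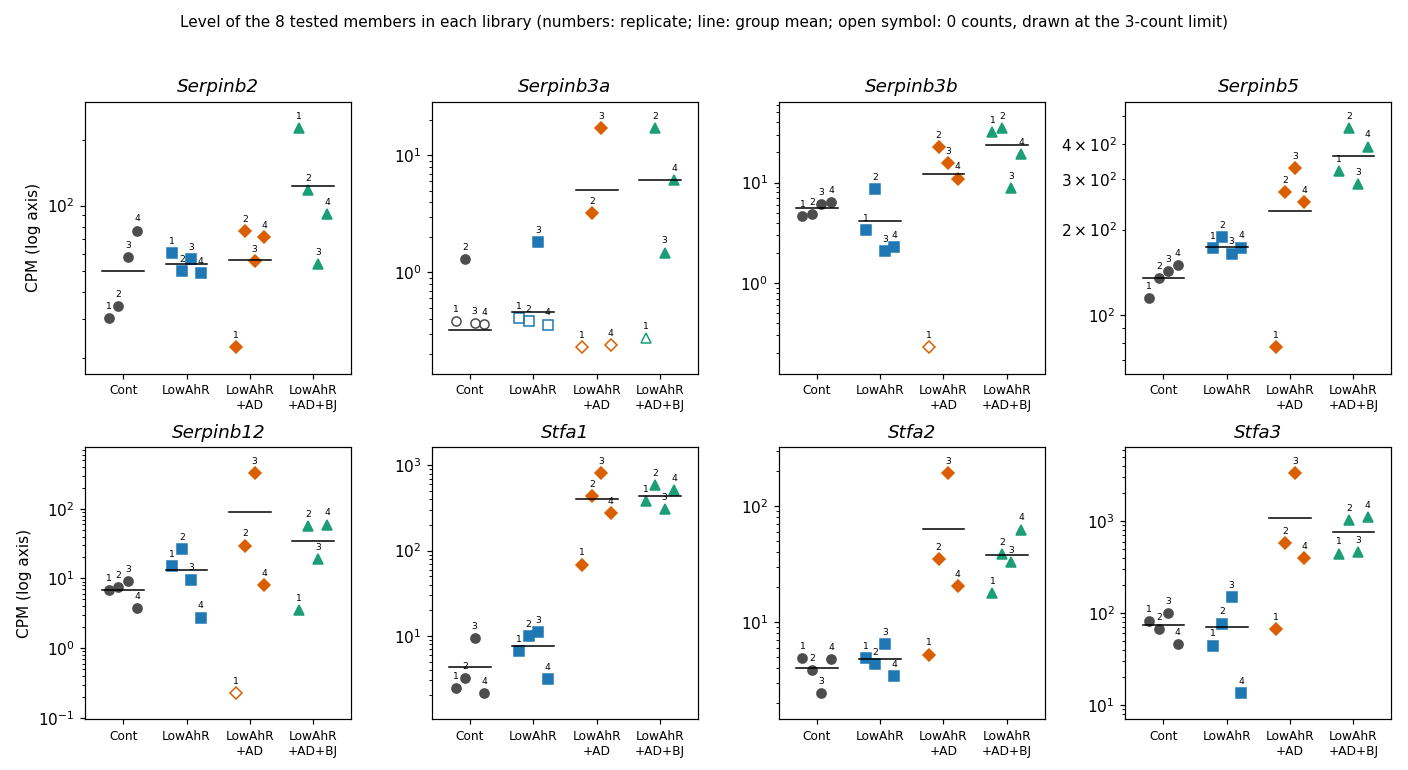
CPM on a log axis for the 8 tested members in each library, by group, with the replicate number beside each point and the group mean as a line. Open symbols are counts of 0, drawn at the limit of 3 counts. The 8 DNCB libraries lie above the other 8 in Stfa1, and LowAhR+AD replicate 1 lies lowest in its group throughout, tied with replicate 4 in Serpinb3a.

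Serpinb12, an inhibitor of trypsin-like proteases, ranged from 0 to 323 CPM. It had 6.80, 7.49, 9.12 and 3.71 CPM in the Cont libraries and 14.9, 26.1, 9.62 and 2.74 CPM in the LowAhR libraries. The LowAhR+AD libraries had 0, 29.7, 323 and 8.03 CPM, and the LowAhR+AD+BJ libraries 3.47, 56.8, 18.7 and 59.4 CPM. All neighbouring groups overlapped, and a single LowAhR+AD library stood above every other library. The log2 fold change between LowAhR+AD and LowAhR was 2.76 (SE 1.24, edgeR adjusted p = 0.154). It was 3.16 without LowAhR+AD replicate 1, where it was called (edgeR adjusted p = 0.0431), and -0.084 without replicate 3 (edgeR adjusted p = 0.969). Against Cont, Serpinb12 was called at 3.73 (SE 1.30, edgeR adjusted p = 0.0484), but without replicate 3 the value was 0.89 (edgeR adjusted p = 0.602), and leaving out any single Cont library also ended the call. The summed level of 7 suprabasal keratinocyte markers moved with the LowAhR+AD libraries, at 1070, 5898, 20565 and 4809 CPM in replicates 1 to 4. Its part in the values of Serpinb12, Stfa2 and Stfa3 was not tested.

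Serpinb3b is a mouse relative of the squamous cell carcinoma antigens, serpins that inhibit cathepsins or serine proteases. It had 4.62, 4.91, 6.17 and 6.46 CPM in Cont and 3.38, 8.70, 2.08 and 2.27 CPM in LowAhR. The LowAhR+AD libraries had 0, 22.6, 15.8 and 11.0 CPM, and the LowAhR+AD+BJ libraries 31.9, 35.1, 8.78 and 19.4 CPM. Apart from LowAhR+AD replicate 1, all libraries with DNCB lay above all LowAhR libraries. The log2 fold change between LowAhR+AD and LowAhR was 1.58 (SE 0.86, edgeR adjusted p = 0.237), and 1.99 without replicate 1 (edgeR adjusted p = 0.0197). In LowAhR+AD+BJ against LowAhR it was 2.53 (SE 0.88, edgeR adjusted p = 0.0912) with no overlap between the groups.

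Serpinb3a, a close copy of Serpinb3b, was at 0 in 9 of the 16 libraries. It was found in Cont replicate 2 (1.29 CPM), LowAhR replicate 3 (1.82 CPM), LowAhR+AD replicates 2 and 3 (3.20 and 17.1 CPM) and LowAhR+AD+BJ replicates 2, 3 and 4 (17.2, 1.48 and 6.15 CPM). The log2 fold change between LowAhR+AD and LowAhR was 3.45 with an SE of 2.02 (edgeR adjusted p = 0.280), so the spread was too wide for a call. Serpinb3c and Serpinb3d, the remaining copies, stayed at or under 0.715 and 0.155 CPM in any library. Summed over the 4 copies, the mean level was 5.89 ± 0.870 CPM in Cont, 4.80 ± 2.72 in LowAhR, 17.5 ± 14.8 in LowAhR+AD and 30.2 ± 17.5 in LowAhR+AD+BJ (SD, n = 4). These sums were not tested.

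Serpinb5 (maspin), a serpin without inhibitory activity on proteases, varied little within the Cont and LowAhR groups. It had 115, 135, 143 and 150 CPM in Cont and 172, 188, 165 and 173 CPM in LowAhR. The LowAhR+AD libraries had 77.3, 271, 329 and 250 CPM, and the LowAhR+AD+BJ libraries 321, 454, 288 and 391 CPM. Group means stood lowest in Cont and highest in LowAhR+AD+BJ, with LowAhR below LowAhR+AD. LowAhR+AD overlapped each of the other groups, which did not overlap each other. In LowAhR+AD against LowAhR the log2 fold change was 0.41 (SE 0.30, edgeR adjusted p = 0.403), and 0.70 without replicate 1, where it was called (edgeR adjusted p = 0.0252). Without that library, Serpinb5 was also called against Cont at 1.05 (edgeR adjusted p = 0.000861), against 0.77 with it (SE 0.30, edgeR adjusted p = 0.0786).

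Serpinb2 (plasminogen activator inhibitor 2), an inhibitor of urokinase, had the highest mean in LowAhR+AD+BJ. It had 30.4, 34.5, 58.0 and 76.7 CPM in Cont, and 60.3, 50.02, 56.8 and 48.9 CPM in LowAhR. The LowAhR+AD libraries had 22.3, 76.0, 55.4 and 71.5 CPM, and the LowAhR+AD+BJ libraries 227, 117, 53.7 and 91.7 CPM. All groups overlapped. The log2 fold change between LowAhR+AD and LowAhR was 0.06 (SE 0.41, edgeR adjusted p = 0.944). Between LowAhR+AD+BJ and LowAhR it was 1.18 (SE 0.41, edgeR adjusted p = 0.0912).

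**Figure D2:**
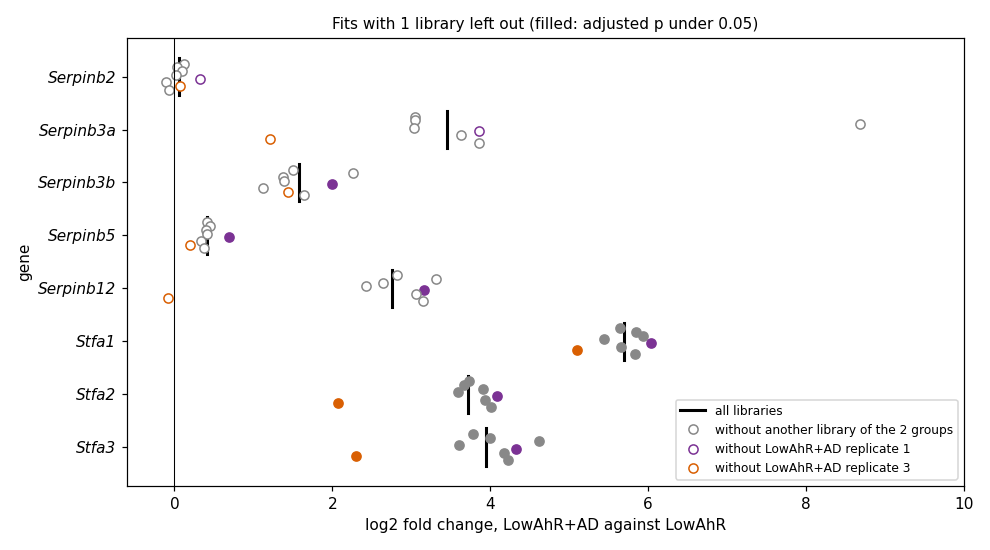
Log2 fold change between LowAhR+AD and LowAhR for each tested member with all libraries (black line) and with 1 library of both groups left out (points, filled where the adjusted p was under 0.05). The stefins stay called in each of these fits, Serpinb12 moves from 2.76 to -0.084 without replicate 3, and Serpinb3b, Serpinb5 and Serpinb12 are called only without replicate 1.

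Leaving out LowAhR+AD replicate 1 raised the number of members called in LowAhR+AD against LowAhR from 3 to 6, with Serpinb3b, Serpinb5 and Serpinb12 added. Calls over all genes went from 1876 to 1718. Leaving out any other library of both groups gave 3 called members, with 1128 to 2015 calls over all genes.

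In LowAhR against Cont, which joins diet and bedding, no member was called. edgeR called 0 of the 14854 genes (0%), with 2031 at an unadjusted p under 0.05, and DESeq2 called 491 genes, none of them a member. edgeR called 475 genes without LowAhR+AD replicate 1 in the model and 159 without LowAhR replicate 2, again with 0 members. Over the 8 tested members the unadjusted p was under 0.05 for 0. The Serpinb5 groups did not overlap, with a log2 fold change of 0.36 (SE 0.30, edgeR adjusted p = 0.663), and 5.68% of all tested genes lay higher in the LowAhR group without overlap. The largest differences were 0.97 in Serpinb12 (SE 1.22, edgeR adjusted p = 0.794) and 0.82 in Stfa1 (SE 0.60, edgeR adjusted p = 0.607).

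In LowAhR+AD against Cont, which joins diet, bedding and DNCB, 4 of 8 tested members were called and all 4 were higher, against 21.8% of all tested genes called in either direction and 12.3% as higher. Stfa1 rose by a log2 fold change of 6.52 (SE 0.71, edgeR adjusted p = 4.78e-05), Stfa2 by 3.97 (SE 0.78, edgeR adjusted p = 0.00177) and Stfa3 by 3.88 (SE 0.88, edgeR adjusted p = 0.00476). With limma voom Stfa2 was at 2.89 and not called (adjusted p = 0.188). Serpinb12 was also called, with the dependence on single libraries given above. The Stfa1 and Stfa2 groups did not overlap, as in 13.0% of all tested genes. LowAhR+AD replicate 1 and the Cont libraries overlapped in Stfa3.

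The comparison of LowAhR+AD+BJ with LowAhR+AD asks whether BJIKT changed these genes in DNCB-treated skin. No member was called, and edgeR called 0 of the 14854 genes (0%), with 1405 at an unadjusted p under 0.05, while DESeq2 called 17 genes and none was a member. Serpinb2 had the smallest p among the members, with a mean of 122 ± 74.5 CPM in LowAhR+AD+BJ and 56.3 ± 24.3 CPM in LowAhR+AD (SD, n = 4). Its log2 fold change was 1.12 (SE 0.41, edgeR adjusted p = 0.498). LowAhR+AD+BJ replicate 1 was highest at 227 CPM, replicate 3 lay inside the LowAhR+AD range, and without replicate 1 the change was 0.64. Serpinb5 differed by 0.65 (SE 0.30, edgeR adjusted p = 0.525). Stfa1 differed by 0.15 (SE 0.55), Stfa2 by -0.73 (SE 0.68) and Stfa3 by -0.53 (SE 0.79), with edgeR adjusted p of 0.948, 0.760 and 0.856. The signs of these stefin values turned on 1 library: without LowAhR+AD replicate 3 they were 0.91 for Stfa2 and 1.12 for Stfa3, and without replicate 1 Stfa1 was at -0.21. The summed level of the 3 stefins was 1550 ± 1880 CPM in LowAhR+AD and 1236 ± 486 CPM in LowAhR+AD+BJ (SD, n = 4), a fold of 0.798, which became 1.97 without LowAhR+AD replicate 3. Serpinb12 differed by -1.39 (SE 1.18, edgeR adjusted p = 0.734) and by 1.46 without that library. These p-values do not show that both groups were alike.

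In LowAhR+AD+BJ against LowAhR, DNCB and BJIKT together, 4 of 8 tested members were called and all 4 were higher, against 6.77% of all tested genes in either direction and 3.64% as higher. They were Stfa1 at 5.85 (SE 0.69, edgeR adjusted p = 0.000356), Stfa2 at 2.98 (SE 0.75, edgeR adjusted p = 0.0229), Stfa3 at 3.42 (SE 0.86, edgeR adjusted p = 0.0239) and Serpinb5 at 1.06 (SE 0.31, edgeR adjusted p = 0.0439). Each of these 4 lay higher without overlap, as did Serpinb3b, against 9.05% of all tested genes. The calls differed in how much they owed to single libraries. With 1 of the 8 libraries left out, Stfa1 was called in 8 of 8 fits, Stfa3 in 4, Stfa2 in 2 and Serpinb5 in 1, while the log2 fold change of Serpinb5 stayed between 0.93 and 1.16. With limma voom Stfa2 (adjusted p = 0.243) and Serpinb5 (adjusted p = 0.0574) were not called, and with upper-quartile factors Serpinb5 was not (edgeR adjusted p = 0.0520). A single member, Stfa1, was called without LowAhR replicate 1 or 2 or without LowAhR+AD+BJ replicate 2 or 4. Calls over all genes also fell in these fits, from 1005 to 606, 519, 414 and 452 in that order. Without LowAhR+AD replicate 1, which enters here through the shared estimate of the spread, 6 members were called, with Serpinb2 (1.18, edgeR adjusted p = 0.0385) and Serpinb3b (2.51, edgeR adjusted p = 0.00401) added. DESeq2 also called 6, with Serpinb2 (adjusted p = 0.0412) and Serpinb3b (adjusted p = 0.0217) added, and the model of these groups alone called 5, with Serpinb3b added (edgeR adjusted p = 0.0199). Over all genes, 1716 were called without LowAhR+AD replicate 1, and 923 to 1676 under the alternatives, with DESeq2 highest. This comparison shares the LowAhR libraries with that of LowAhR+AD against LowAhR, so they are not independent of each other.

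**Figure D3:**
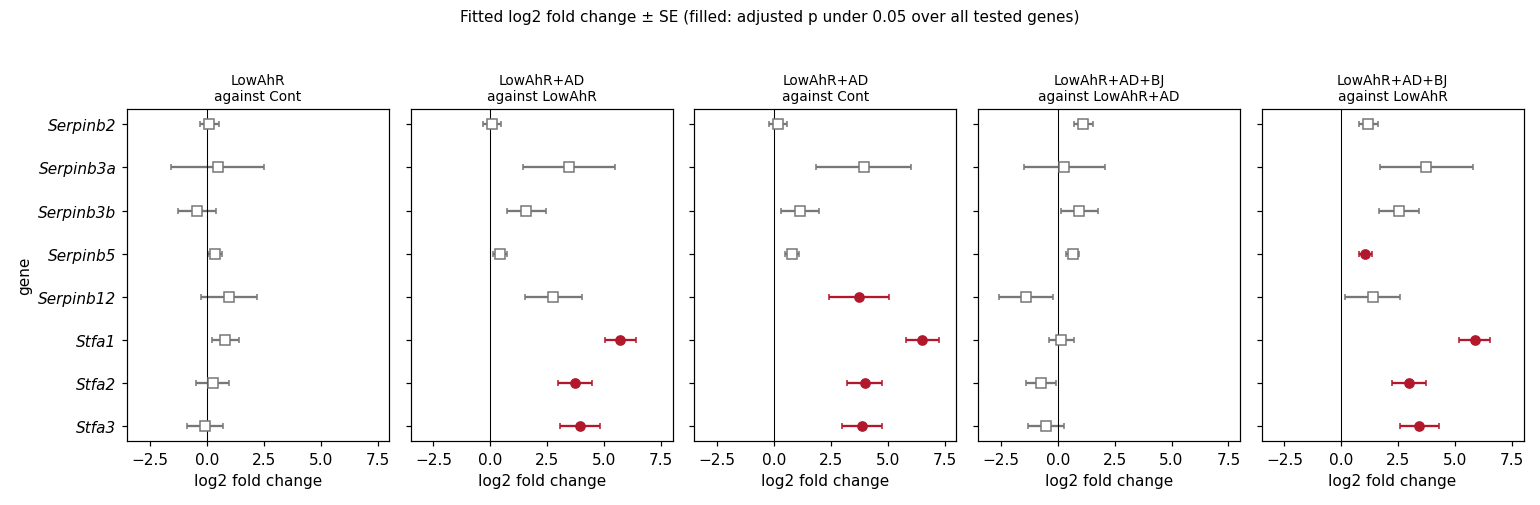
Fitted log2 fold change with its SE for the 8 tested members in each comparison. Filled red circles have an adjusted p under 0.05 over all tested genes: 3 in LowAhR+AD against LowAhR, 4 in LowAhR+AD against Cont, 4 in LowAhR+AD+BJ against LowAhR, and none elsewhere.

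Within the stefins, the make-up of the sum differed between groups. Stfa1 was 4.89% of the summed CPM of the 3 genes in Cont, 11.2% in LowAhR, 37.3% in LowAhR+AD and 37.3% in LowAhR+AD+BJ, as means over the libraries. Stfa3 was 89.6%, 80.2%, 59.1% and 59.7% of it in the same order. As 23.9% of the end windows of Stfa1 were also found in BC100530, reads of BC100530 may be counted as Stfa1. Their part in these shares was not tested. The 10 members together took 0.0264% to 0.0344% of all counts in the Cont libraries and 0.0237% to 0.0389% in the LowAhR libraries. In LowAhR+AD they took 0.0278% to 0.483%, with a mean of 0.189% that was 0.0914% without replicate 3, and in LowAhR+AD+BJ 0.115% to 0.209%, with a mean of 0.169%. LowAhR+AD replicate 1 lay inside the range of the groups without DNCB, the other DNCB libraries lay above it, and the order of the means of both DNCB groups turned on replicate 3.

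Most of the other tested genes of the stefin cluster were also higher after DNCB. Of its 11 rows in the count tables, from Csta1 to Stfa3, 10 were tested, and 8 were called as higher in LowAhR+AD against LowAhR, among them 5 of the 7 tested neighbours that are not members. Of all tested genes, 6.42% were called as higher. BC100530, whose transcript end is 98.7% identical to that of Stfa1, had 389.7, 2971, 6341 and 1816 CPM in the LowAhR+AD libraries and 12.2 to 80.9 CPM in the LowAhR libraries (log2 fold change 6.08, SE 0.77, edgeR adjusted p = 0.000168). BC117090 rose from 2.76 ± 2.25 to 265 ± 213 CPM (SD, n = 4; log2 fold change 6.58, SE 0.82, edgeR adjusted p = 0.000166). The order of the LowAhR+AD libraries in both genes was that of Stfa1, with replicate 3 highest and replicate 1 lowest. These genes may share reads: 52.2% of the windows at the end of BC100530 were also found in BC117090 or Stfa1, 28.3% of those of BC117090 in BC100530, and 26.5% of those of Gm5483 and 2010005H15Rik in each other. Their calls are therefore not separate from each other or from that of Stfa1. Gm5416, Gm5483 and 2010005H15Rik were also called (edgeR adjusted p = 0.00353, 0.00514 and 0.000577), and their means in LowAhR were at most 0.419 CPM. Csta1 at the other end of the cluster, the closest relative of human stefin A, was not called, at -0.15 (SE 0.69, edgeR adjusted p = 0.916).

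Calls in the serpin cluster were few. Of its 12 rows from Serpinb5 to Serpinb8, 10 were tested. None was called as higher in LowAhR+AD against LowAhR, where 6.42% of all tested genes were. Without LowAhR+AD replicate 1, its members Serpinb3b, Serpinb5 and Serpinb12 were called as higher. With all libraries, 1 row was called as lower, against 12.6% of all tested genes called in either direction. The one that fell was Serpinb10, the neighbour of Serpinb2, at a log2 fold change of -2.22 (SE 0.35, edgeR adjusted p = 0.000949), from 125 ± 65.0 to 26.8 ± 7.27 CPM (SD, n = 4). Serpinb7, on the other side of Serpinb2, had 54.9 ± 23.7 CPM in LowAhR and 8.30 ± 13.9 CPM in LowAhR+AD (log2 fold change -2.72, SE 0.99, edgeR adjusted p = 0.0768), and it was called as lower against Cont (edgeR adjusted p = 0.0286).

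**Figure D4:**
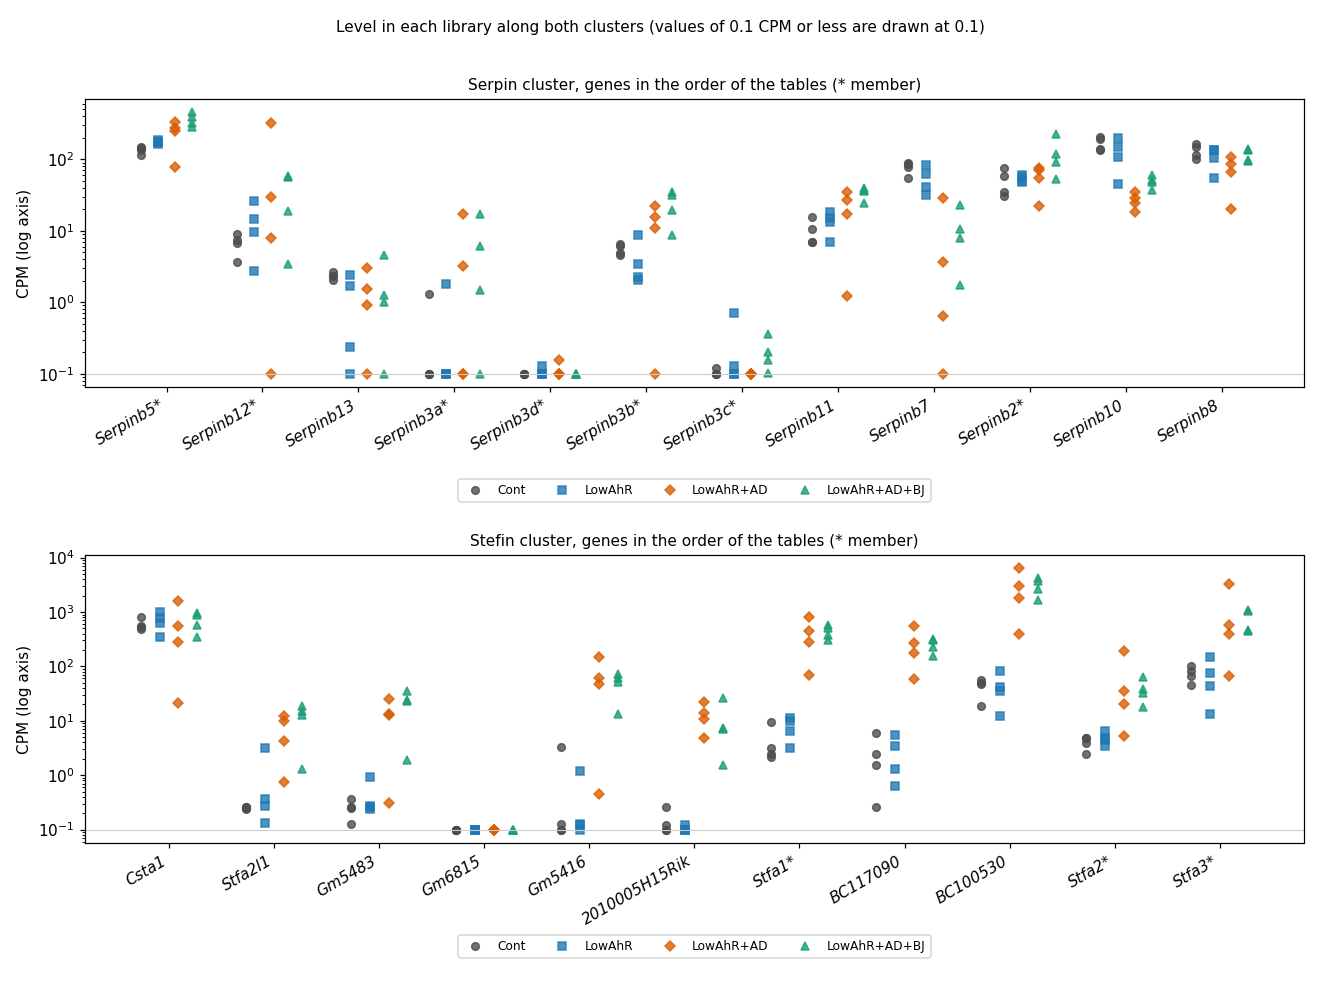
CPM on a log axis in each library for the genes of the serpin cluster (top) and the stefin cluster (bottom), in table order, with members starred and values up to 0.1 CPM drawn at 0.1. In Stfa1, BC117090, BC100530 and 2010005H15Rik all orange and green points (DNCB) stand above all grey and blue ones, whereas in the serpin cluster Serpinb10 and Serpinb7 are lower.

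Related genes and proteases, some of them targets of these inhibitors, were counted in the same comparison. Of 15 tested clade B serpins outside the members, 0 rose and 4 fell in LowAhR+AD against LowAhR, with Serpinb10 followed by Serpinb6e (-2.98, edgeR adjusted p = 0.0260), Serpinb6a (-0.94, edgeR adjusted p = 0.0273) and Serpinb6c (-1.35, edgeR adjusted p = 0.0489), and their median was -0.94. Serpinb6e, Serpinb6a and Serpinb6c had means of 42.7, 429 and 12.1 CPM in Cont and 115, 616 and 52.4 CPM in LowAhR. In LowAhR+AD against Cont they were at -1.55, -0.42 and 0.76 and not called (edgeR adjusted p = 0.182, 0.284 and 0.236). There, 1 of the 15 was called as higher and 2 as lower, against 21.8% of all tested genes in either direction. Of 11 tested stefins and cystatins outside the members, 5 rose and 1 fell in LowAhR+AD against LowAhR. The one that fell was Cst3, the secreted cystatin C (-1.18, edgeR adjusted p = 0.00996). Among 11 genes of cysteine cathepsins, a class of proteases that stefins inhibit, and of legumain, none was called. Ctsl, a cathepsin of the epidermis, had 0.83 (edgeR adjusted p = 0.224) here and was called against Cont at 1.63 (edgeR adjusted p = 0.0141). Among 5 tested genes of the plasminogen activator system, in which Serpinb2 inhibits urokinase, none was called. Plau, which encodes urokinase, had 0.64 (edgeR adjusted p = 0.435). Of 6 tested proteases of mast cells and neutrophils, 2 were called. Tpsb2, a mast cell tryptase, rose by 1.21 (edgeR adjusted p = 0.0209). Tpsab1, another tryptase, was also called (edgeR adjusted p = 0.0177), from 0 in all LowAhR libraries to 1.71 ± 0.509 CPM in LowAhR+AD (SD, n = 4). It was at 2.28 ± 2.24 CPM in Cont (SD, n = 4), and LowAhR+AD differed from Cont by -0.41 (edgeR adjusted p = 0.845). Of 13 listed cytokines of skin inflammation, 5 passed the filter (Tslp, Il33, Il1b, Tnf and Osm), and Il1b rose by 2.20 (edgeR adjusted p = 0.0245). Il4, Il13, Il5, Il31, Il17a, Il17f, Il22 and Il6 did not pass the filter, so they could not be compared.

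Markers of the cells that could carry these transcripts were read in the same libraries. All 7 activated keratinocyte markers rose in LowAhR+AD against LowAhR, led by Krt6a, Krt16 and Sprr1b (each with an edgeR adjusted p of 0.000148), and their summed level was 589 to 1810 CPM in LowAhR and 12002 to 35875 CPM in LowAhR+AD. Unlike the stefins, this sum was lowest in LowAhR+AD replicate 3. Of 7 basal keratinocyte markers, 3 rose (Krt14, Krt5 and Itgb4) and Col17a1 fell, and of 7 suprabasal markers none was called. Of the 9 neutrophil markers found in the tables, 5 were tested, and Mmp8 (4.06, edgeR adjusted p = 0.0223) and Cxcr2 (3.52, edgeR adjusted p = 0.0269) rose. Called or not, 4 of these 5 were higher and 1 was lower. The summed level of the 9 neutrophil markers was 2.31 to 3.82 CPM in Cont, 5.96 to 14.4 in LowAhR, 15.5 to 81.9 in LowAhR+AD and 12.7 to 57.6 in LowAhR+AD+BJ. In LowAhR, Retnlg made up most of this sum, with a mean of 8.52 of 11.4 CPM, and was not called against Cont (edgeR adjusted p = 0.0659). The granule gene Ltf was at 0 in all libraries of the Cont, LowAhR and LowAhR+AD+BJ groups and reached 1.01 CPM in LowAhR+AD, and Mpo reached at most 2.12 CPM. This sum was highest in LowAhR+AD replicate 4, whereas Stfa1 to Stfa3 were highest in replicate 3. Of 7 macrophage markers, 6 were tested and none was called, and the summed level of all 7 was 631 to 763 CPM in LowAhR and 70.8 to 613 CPM in LowAhR+AD. Markers of skeletal muscle (21 of 22) and adipocytes (10 of 12) fell. Of 27 hair follicle markers, 2 were called as higher in LowAhR+AD against LowAhR (median log2 fold change 2.00) and 24 against Cont (median 6.65), and none was called in LowAhR against Cont (median 4.45). Their summed level was 124 to 1322 CPM in Cont, 202 to 22022 in LowAhR, 9747 to 54694 in LowAhR+AD and 14561 to 43939 in LowAhR+AD+BJ. Like the tested members, this sum was lowest in its group in LowAhR+AD replicate 1, but it was highest in replicate 2. The part of these cell types in the levels of the members was not tested.

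Genes with the most similar pattern were sought for the serpin and the stefin with the highest level, as the mean absolute difference of centred log2 CPM over the 16 libraries. For Serpinb5 the closest of 9380 genes were Rab11a (0.16), a GTPase of recycling endosomes, E030024N20Rik (0.18) and Timm23 (0.19), a subunit of the mitochondrial import channel, against a median of 0.68. For Stfa3 they were Crabp1 (0.71), Teddm3 (0.74) and Fabp5 (0.85), with a median of 1.80, and Crabp1 and Fabp5 bind retinoic acid and fatty acids. Among the members, Serpinb2 and Serpinb5 (0.36) and Stfa2 and Stfa3 (0.52) were the most alike. All these values come from the same libraries, with their shared depth and make-up, and are a description.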

How the data were processed

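Skin RNA of 16 mice, 4 per group, was read as 1 library per mouse, and groups and replicate numbers came from the labels. The authors deposited whole-number read counts per gene symbol for each library, made from single-end QuantSeq reads. Their processing notes name Bowtie2, bedtools and mm10, without versions, and how reads matching more than 1 gene were counted is not given in the sources used here. Coordinates and promoters come from RefSeq tables of GRCm38.p6, and transcript ends from the reference transcripts.

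Counts were analysed with edgeR 4.0.16 in R 4.3.3. filterByExpr (minimum count 10, minimum total count 15) kept 14854 of 23282 rows (some of the 23238 symbols fill more than 1 row). All 16 libraries entered 1 quasi-likelihood model with TMM scaling, and p-values were adjusted over all tested rows by the Benjamini-Hochberg method, with a call under 0.05. The SE is the log2 fold change divided by the square root of F. log2 CPM used a prior count of 2. p-values set the difference between groups against the spread between these samples. Replicates of a group differed more than sampling noise (chi-square per degree of freedom 16.4 to 285 over 24 pairs). The statistics were tested on simulated counts.

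The members, gene lists and tests were chosen with earlier results of these data known. Every member is given, and from each list up to 4 called genes with the smallest adjusted p in LowAhR+AD against LowAhR, Serpinb7, Csta1, Ctsl and Plau being named after their values were seen. Tried beside this were DESeq2 1.42.0, limma voom (limma 3.58.1), scaling by RLE or upper-quartile factors, no filter or at least 10 counts in every library, separate models for each pair of groups, a block for the replicate number, library sizes without hair follicle, muscle and adipocyte markers, and each library left out. Ly6g was not analysed here.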

Additional observations from a re-analysis of the deposited data

Results flagged for a closer look

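Dixon's test for a single sample far from its group picked 6 of the 34 member and group pairs with enough spread to test. Chance meets it in about 1 of 20 groups of normally distributed values. The test was run on unlogged CPM, so the number picked cannot be set against that rate. In LowAhR+AD replicate 3, Serpinb12 had 323 CPM (nearest library 29.7), Stfa2 had 192 CPM (nearest 34.7) and Stfa3 had 3315 CPM (nearest 574). In Cont replicate 3, Stfa1 had 9.49 CPM (nearest 3.23). Serpinb3a had 1.29 CPM in Cont replicate 2 and 1.82 CPM in LowAhR replicate 3, where the other libraries of the group were at 0. Such a pattern of zeros always meets the rule. Serpinb3a had 0 counts in 9 libraries and 10 or more in the other 7, with no library between 1 and 9.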

How the results depend on the processing

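Values below are log2 fold changes or counts of calls. Stfa1 stayed called under every alternative in the 3 comparisons of a DNCB group with a group without DNCB. DESeq2 called 491 genes in LowAhR against Cont, 17 in LowAhR+AD+BJ against LowAhR+AD and 1676 in LowAhR+AD+BJ against LowAhR (edgeR 0, 0 and 1005). With at least 10 counts in every library, 45 genes were called in LowAhR against Cont. Separate models for each pair of groups called 250 genes in that comparison and 765 in LowAhR+AD against LowAhR (1876 with all libraries). limma voom called 2 members both in LowAhR+AD against Cont and in LowAhR+AD+BJ against LowAhR (4 with edgeR), losing Stfa2 in both, Serpinb12 in the first and Serpinb5 in the second. DESeq2 called 6 members in the second. limma voom turned the sign in LowAhR+AD against LowAhR of Serpinb2 (-0.084), Serpinb3b (-0.082) and Serpinb12 (-0.48), against Cont of Serpinb3b (-0.76), and in LowAhR+AD+BJ against LowAhR+AD of Serpinb12 (1.57), Stfa2 (0.23) and Stfa3 (0.54). The causes were not tested.

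With single libraries left out, calls over all genes ranged from 0 to 475 in LowAhR against Cont, 1128 (without LowAhR replicate 2) to 2015 in LowAhR+AD against LowAhR, 0 to 1 in LowAhR+AD+BJ against LowAhR+AD, and 414 (without LowAhR+AD+BJ replicate 2) to 1716 (without LowAhR+AD replicate 1) in LowAhR+AD+BJ against LowAhR. Called members ranged from 3 to 6 in LowAhR+AD against LowAhR and from 1 to 6 in LowAhR+AD+BJ against LowAhR. In LowAhR against Cont, Serpinb2 ranged from -0.066 to 0.40, Serpinb3a from -4.73 to 5.22 and Stfa3 from -0.72 to 0.28. In LowAhR+AD against LowAhR, Serpinb2 ranged from -0.11 to 0.32 and Serpinb12 from -0.084 to 3.32. In LowAhR+AD+BJ against LowAhR+AD, Serpinb3a ranged from -1.02 to 2.53, Serpinb12 from -1.81 to 1.46, Stfa1 from -0.21 to 0.76, Stfa2 from -1.12 to 0.91 and Stfa3 from -0.92 to 1.12.

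The deviations of same-numbered samples correlated at -0.055 to 0.167, above 0.1 in 3 of 20 pairs of groups and numbers, so the numbers were not taken to pair the samples. With the replicate number as a block, Serpinb3a in LowAhR against Cont was -0.34, Stfa3 in LowAhR+AD+BJ against LowAhR+AD was 0.41, and Serpinb12 in LowAhR+AD against Cont was 2.49 and not called (edgeR adjusted p = 0.271). A count of 0 at these depths allows 0.229 to 0.406 CPM, so Serpinb3c and Serpinb3d could not be compared.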
